A study of Mus musculus with 8 samples.

Results

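The 10 genes described here move or convert pyruvate and lactate, or control the entry of pyruvate into the citric acid cycle. They were chosen by symbol, as carriers of the cell surface (Slc16a1, Slc16a3, Slc16a7), lactate dehydrogenase subunits (Ldha, Ldhb), the mitochondrial pyruvate carrier (Mpc1, Mpc2), and pyruvate dehydrogenase E1 with one of its kinases (Pdha1, Pdhb, Pdk1). The choice was made with earlier results of these data known. All 10 were found among the 34976 gene symbols used. RNA was measured in 8 libraries of mouse embryos (CF-1, an outbred stock) at the late 2-cell stage, each made from a pool of 40 embryos. At the early 1-cell stage these had received a scrambled morpholino (4 collections) or a morpholino that the labels describe as aimed at the start site of Med13 transcription (4 collections). A morpholino is an antisense oligomer that blocks translation or splicing of its target RNA. All embryos of both groups were injected, and the labels name no uninjected group. The series title puts the question as the role of MED13, which belongs to the kinase module of Mediator, in zygotic genome activation.

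The mouse embryo before compaction depends on pyruvate, with lactate beside it, and makes little use of glucose. Monocarboxylate carriers move pyruvate and lactate across the cell surface together with a proton, and lactate dehydrogenase interconverts the pair while it balances NADH and NAD. The MPC1-MPC2 heterodimer carries pyruvate through the inner mitochondrial membrane. There the pyruvate dehydrogenase complex turns it into acetyl-CoA, unless a pyruvate dehydrogenase kinase has phosphorylated the E1 alpha subunit.

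Libraries held 31378977 to 48050262 fragments in total, as read back from the deposited values. Scrambled replicate 2 stood apart: its top 10 genes took 20.8% of summed FPKM, against 13% to 13.8% in the other scrambled and 16.4% to 17.5% in the Med13 morpholino libraries, and 26.3% of its genes were listed at 0, against 14.2% to 19% in the other 7 libraries. FPKM is the number of fragments scaled by transcript length and library total, and values of all transcript models of a gene were summed. Values after ± are SDs over the 4 libraries of a group unless named as standard errors (SE). The targeted mRNA, Med13, had a mean of 41.3 ± 4.31 FPKM in the scrambled group and 42.2 ± 2.14 FPKM in the Med13 morpholino group (n = 4 each), a level that does not check the labels, since a morpholino can leave its target mRNA in place. Markers of the 2-cell embryo were present, and all 7 rose after Med13 morpholino, with a summed FPKM of 88.7 to 199 in scrambled libraries and 277 to 572 in Med13 morpholino libraries. Of 6 oocyte markers, Gdf9, Bmp15, Zp3 and Nlrp5 rose (4 in all), and Zar1 and Dppa3 were not called. Gdf9, for example, went from 15.2 ± 2.7 to 64.7 ± 9.74 FPKM. Sums of the 6 were 527 to 643 and 570 to 808 FPKM, mostly Dppa3 (557 ± 58.2 and 536 ± 119 FPKM), so they hardly show these rises. Of 8 cumulus cell markers 0 reached a mean of 1 FPKM, and their sums of 0.511 to 1.36 and 0.801 to 1.06 FPKM overlapped. Those of 4 blood markers did not overlap (1.04 to 1.36 and 0.766 to 0.957 FPKM), nor did those of 4 oviduct markers (3.84 to 6.3 and 2.74 to 3.11 FPKM, mostly Ovgp1). Ovgp1, the 1 oviduct marker tested, fell from 3.49 ± 0.679 to 2.18 ± 0.189 FPKM (limma adjusted p = 0.044). Sums of the 3 sperm markers in the table were 0.104 to 0.893 and 0.114 to 0.417 FPKM. What part any of these cells have in the results below was not tested. In pooled embryos, fewer cells with a transcript and less of it per cell cannot be told apart.

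After Med13 morpholino, RNA was lower for the surface carrier with the most RNA of the 3 chosen. It was also lower for a lactate dehydrogenase subunit and a mitochondrial pyruvate carrier subunit. RNA of the other lactate dehydrogenase subunit was higher. Slc16a1, Ldha and Mpc1 fell to 55.4%, 57.6% and 54.6% of their scrambled mean FPKM, and Ldhb rose to 153%. Pyruvate dehydrogenase E1 and its kinase Pdk1 did not pass the test. In all, 8 of the 10 genes had a mean of at least 1 FPKM and were tested. Of these, 4 were called (limma, Benjamini-Hochberg adjusted p below 0.05 over 11755 genes), 3 lower and 1 higher. Among all 11755 genes, 17.1% were called, 7.81% lower and 9.29% higher. The groups did not overlap in 5 of the 8, 4 of them lower and 1 higher, against 21.6% of all genes tested (11.1% lower and 10.4% higher). The median log2 fold change was -0.29 over the 8 and -0.06 over all genes tested. The 10 genes were chosen with earlier results of these data known, so their counts and median cannot be weighed against those of all genes. Leaving out 1 library left between 1 and 5 of the 8 called: 2 without scrambled replicate 3 or 4 or Med13 morpholino replicate 1 or 3, and 1, Mpc1, without Med13 morpholino replicate 2.

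**Figure D1:**
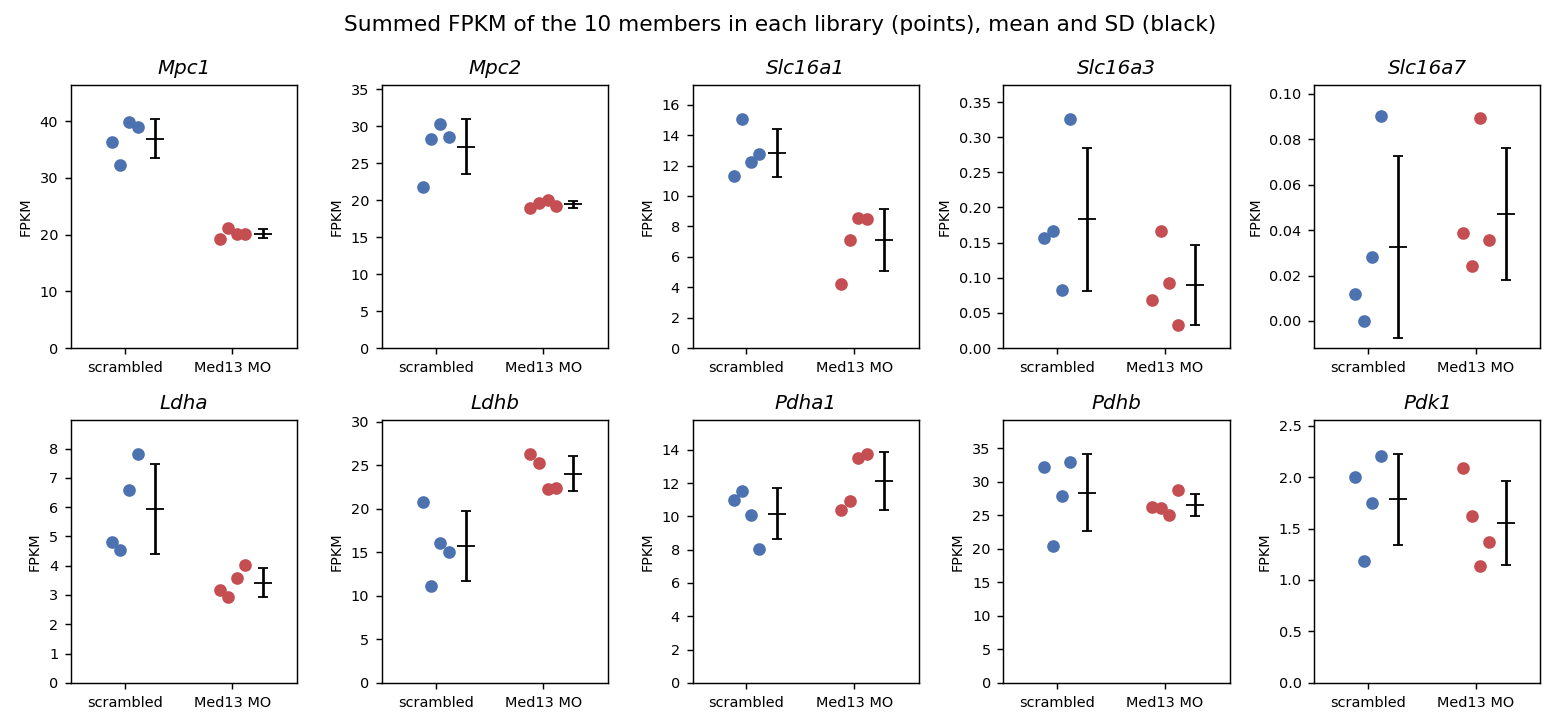
Summed FPKM (vertical axes, linear) of each gene in the 4 scrambled (blue) and 4 Med13 morpholino libraries (red), with the mean and SD in black. The groups are apart for Mpc1, Mpc2, Slc16a1, Ldha and Ldhb, and overlap for the other 5 genes; the panel of Slc16a7 starts below 0 to show its SD bar.

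The stretches of DNA before the start sites of the 4 called genes are shown because these genes moved in the same comparison, 3 of them down and 1 up. They come from RefSeq (GRCm38.p6), which had an entry for 9 of the 10 genes, and run 5′ to 3′ on the gene's strand. Each ends just before the annotated start, or for Mpc1 just before the start of its most abundant transcript model. Capitals mark ACGTG or GCGTG on either strand, the core letters of hypoxia response elements, and the E-box CACGTG, which Myc and related factors bind and which holds an ACGTG on both strands.
Slc16a1 (chr3:104638414-104638663, plus strand): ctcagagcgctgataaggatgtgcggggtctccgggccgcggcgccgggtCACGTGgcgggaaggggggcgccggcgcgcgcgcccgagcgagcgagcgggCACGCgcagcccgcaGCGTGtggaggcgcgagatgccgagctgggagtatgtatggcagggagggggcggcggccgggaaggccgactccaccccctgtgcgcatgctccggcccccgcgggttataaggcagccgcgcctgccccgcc
Ldha (chr7:46845554-46845803, plus strand): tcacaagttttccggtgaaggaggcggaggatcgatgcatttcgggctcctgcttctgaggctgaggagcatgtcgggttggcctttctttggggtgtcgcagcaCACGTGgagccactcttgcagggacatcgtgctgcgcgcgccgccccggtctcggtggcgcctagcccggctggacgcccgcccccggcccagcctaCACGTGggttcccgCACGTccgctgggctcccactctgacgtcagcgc
Ldhb (chr6:142507958-142508207, minus strand): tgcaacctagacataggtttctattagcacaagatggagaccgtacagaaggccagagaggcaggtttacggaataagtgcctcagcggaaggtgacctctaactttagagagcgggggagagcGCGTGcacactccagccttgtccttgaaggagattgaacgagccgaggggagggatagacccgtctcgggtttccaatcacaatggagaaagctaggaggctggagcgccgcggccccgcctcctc
Mpc1 (chr17:8283537-8283761, plus strand): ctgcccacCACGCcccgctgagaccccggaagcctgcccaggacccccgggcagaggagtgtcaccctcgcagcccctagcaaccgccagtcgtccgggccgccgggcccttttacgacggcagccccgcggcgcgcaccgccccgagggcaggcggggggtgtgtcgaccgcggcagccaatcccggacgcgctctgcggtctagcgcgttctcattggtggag
In the 250 bases before the start, Slc16a1 held 1 E-box and Ldha 2, and 2 of the 9 genes with an entry held any, against 6.04% of all 32536 promoter windows of that length. A core of ACGTG or GCGTG stood in 9 of 9, against 38.8% of all windows. These windows were richer in G and C (56.4% to 76.4%) than the median of all windows, 52.4%. The CCAAT box (CCAAT) stood in Mpc1, Mpc2, Ldhb and Pdhb (33.8% of all windows) and the GC box (GGGCGG) in 7 of 9 (33.0%). The RefSeq start of Mpc2 lies 223 bases downstream of the start of its most abundant model. Its CCAAT and GC boxes therefore lie within the span of that model. The same holds for the CCAAT box and the core of Pdhb nearest its RefSeq start. TCAAGGTCA, bound by estrogen-related receptors, and the palindromic NRF1 site stood in 0 of 9 (0.375% and 0.784% of all windows). All motifs were sought on both strands. A match describes the letters only, and binding was not measured here.

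Slc16a1 encodes MCT1, a proton-linked carrier of lactate and pyruvate (GRCm38 chromosome 3, 104638668 to 104658462, plus strand, 1 transcript model). It was at 11.28, 15.04, 12.23 and 12.73 FPKM in scrambled replicates 1 to 4 and at 4.238, 7.121, 8.576 and 8.490 FPKM in Med13 morpholino replicates 1 to 4. Every Med13 morpholino library lay below every scrambled library, and replicate 1 was the lowest. The log2 fold change was -0.80 ± 0.20 SE (limma adjusted p = 0.0185), with a 95% interval of -1.24 to -0.37. Leaving out Med13 morpholino replicate 2 ended the call (limma adjusted p = 0.0517), as did using no filter on low values (limma adjusted p = 0.0693), and it held when any of the other 7 libraries was left out.

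Slc16a1 supplied nearly all RNA of the 3 surface carriers. Slc16a3, which encodes the lactate exporter MCT4 of glycolytic cells, was at 0.183 ± 0.102 and 0.0901 ± 0.0565 FPKM (n = 4 each), which rests on 6.5 to 25.0 fragments per library. Slc16a7, which encodes MCT2, a carrier of high affinity for pyruvate, was listed at 0 in scrambled replicate 2 and reached at most 6.9 fragments in any library. Both were under the mean of 1 FPKM and untested, and their groups overlapped. Slc16a1 made up 96.8% to 99.1% of the summed FPKM of the 3 genes in scrambled libraries and 97.4% to 99.2% after Med13 morpholino.

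The subunits of lactate dehydrogenase went opposite ways. Ldha encodes the muscle-type subunit, known for reducing pyruvate to lactate (chromosome 7, 46841475 to 46855627, plus strand). It was at 4.82, 4.53, 6.59 and 7.81 FPKM in scrambled replicates 1 to 4 and at 3.15, 2.93, 3.58 and 4.03 FPKM after Med13 morpholino. The groups did not overlap, but scrambled replicates 1 and 2 lay within 1 FPKM of the highest Med13 morpholino library. Ldha fell by 0.63 ± 0.18 SE on the log2 scale (limma adjusted p = 0.0307; 95% interval -1.02 to -0.24). Ldhb encodes the heart-type subunit, known for oxidising lactate to pyruvate (chromosome 6, 142490249 to 142507957, minus strand). It was at 20.78, 11.07, 16.05 and 14.99 FPKM in scrambled replicates 1 to 4 and at 26.28, 25.28, 22.25 and 22.35 FPKM after Med13 morpholino. Here every Med13 morpholino library was above every scrambled library, with scrambled replicate 2 the lowest and scrambled replicate 1 the nearest. Ldhb rose by 0.61 ± 0.18 SE (limma adjusted p = 0.0393; 95% interval 0.21 to 1.01).

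Both calls were close to the threshold, and with no filter on low values neither was made (limma adjusted p = 0.0880 for Ldha and 0.108 for Ldhb). That of Ldha was lost in 5 of 8 fits without 1 library (limma adjusted p up to 0.0994) and that of Ldhb in 6 (up to 0.110), the one without scrambled replicate 2 among them (log2 fold change 0.46, limma adjusted p = 0.0604). Near-identical copies can share reads with these genes: Ldhb matched the pseudogene Gm5514 over 1002 bases at 98.0% identity, and Gm5514 was at 1.89 ± 0.498 and 2.55 ± 1.17 FPKM (n = 4 each). Ldha matched 5 other annotated genes at 95% identity or more over at least 100 bases. Those with a value among the rows used summed to 0.004 FPKM, and the level of any copy outside those rows is not known.

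The balance between the subunits, taken within each library, is free of any scaling between libraries. Ldhb over Ldha was 4.31, 2.44, 2.43 and 1.92 in scrambled replicates 1 to 4 and 8.33, 8.63, 6.22 and 5.55 in Med13 morpholino replicates 1 to 4. Ldha thus made up 18.8% to 34.3% of the summed FPKM of both genes in scrambled libraries and 10.4% to 15.3% after Med13 morpholino. The log2 ratio was 1.40 ± 0.496 and 2.82 ± 0.313 (n = 4 each), and the groups did not overlap. They could not have, since the groups were already apart for each gene alone, in opposite directions, so this adds no separate result. No test was made of this ratio, since its genes were chosen with results of these data known. The third subunit gene, Ldhc, known from testis and oocyte, was at 2.84 ± 1.34 and 3.22 ± 0.595 FPKM and was not called (limma adjusted p = 0.602).

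**Figure D2:**
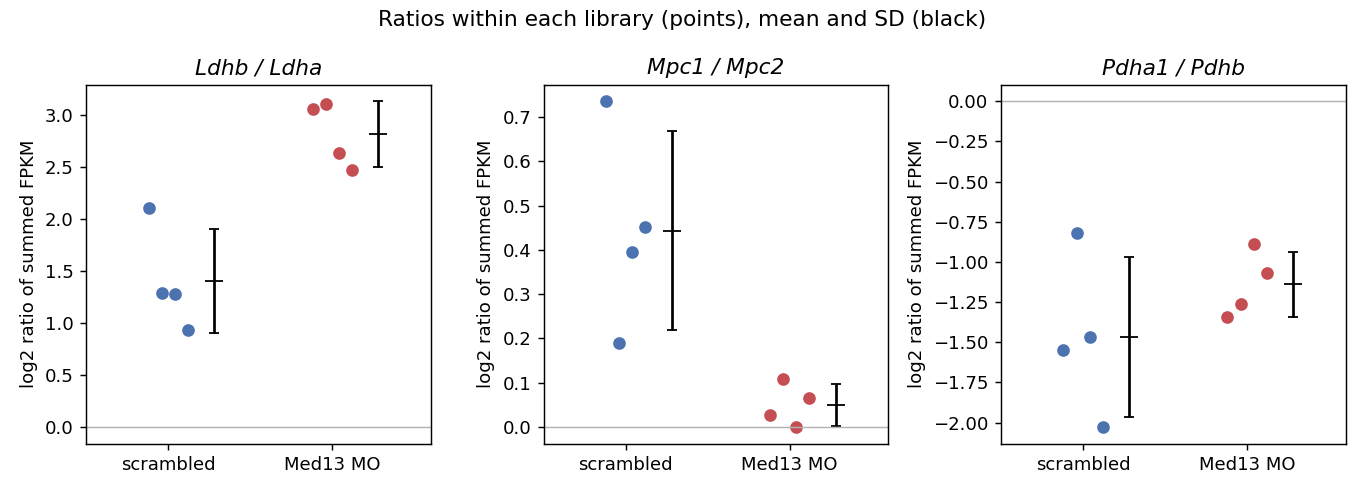
Log2 ratios of summed FPKM within each library for 3 gene pairs, in scrambled (blue) and Med13 morpholino libraries (red), with mean and SD in black; the vertical axes differ between panels. Ldhb over Ldha lies between 0.94 and 2.11 in scrambled and between 2.47 and 3.11 in Med13 morpholino libraries, while Pdha1 over Pdhb overlaps.

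Mpc1, one subunit of the mitochondrial pyruvate carrier, had the smallest adjusted p of the 10 genes. It lies on chromosome 17 (8282904 to 8297661, plus strand). Its values were 36.36, 32.25, 39.90 and 39.01 FPKM in scrambled replicates 1 to 4 and 19.26, 21.16, 20.06 and 20.08 FPKM after Med13 morpholino. The groups were far apart, and the Med13 morpholino libraries lay close together, within 2 FPKM of each other. Mpc1 fell by 0.84 ± 0.14 SE on the log2 scale (limma adjusted p = 0.00277; 95% interval -1.15 to -0.53). The call held in all 16 alternative fits, 8 of which left out 1 library (limma adjusted p up to 0.0129). Of its exonic bases, 23.1% overlap 4930506C21Rik, a noncoding gene of the other strand, and the sources used here do not give the strand setting. That neighbour was at 1.13 ± 0.602 and 0.495 ± 0.251 FPKM (n = 4 each), too low to be tested. The most abundant model of Mpc1 matched 3 other annotated genes at 95% identity or more over at least 100 bases, 4930506C21Rik among them. The longest match was 330 bases at 99.7% identity. Copies with a value among the rows used had a summed mean of 0.81 FPKM over all libraries, and what part shared reads have was not tested.

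Mpc2, its partner (chromosome 1, 165460637 to 165481214, plus strand), was lower by less and missed the threshold. It was at 21.83, 28.28, 30.32 and 28.52 FPKM in scrambled replicates 1 to 4 and at 18.90, 19.62, 20.08 and 19.19 FPKM after Med13 morpholino. The groups did not overlap, although scrambled replicate 1 lay only just above the Med13 morpholino libraries. The log2 fold change was -0.46 ± 0.15 SE (limma adjusted p = 0.0561; 95% interval -0.78 to -0.13). Without scrambled replicate 1 it was -0.55 and passed (limma adjusted p = 0.0376). Mpc1 over Mpc2 was 1.14 to 1.67 in scrambled libraries and 0.999 to 1.08 in Med13 morpholino libraries. These ratios are of sums over all models and were not tested. On the most abundant model of each gene the levels were in another order, with 11 FPKM for Mpc1-208 and 12.3 FPKM for Mpc2-201 in scrambled libraries and 5.47 and 9.57 FPKM after Med13 morpholino.

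Pyruvate dehydrogenase E1 did not move detectably. Pdha1, the E1 alpha subunit that the kinases phosphorylate (chromosome X, 160122209 to 160138413, minus strand), was at 11.01, 11.52, 10.07 and 8.06 FPKM in scrambled replicates 1 to 4 and at 10.38, 10.92, 13.52 and 13.75 FPKM after Med13 morpholino. Med13 morpholino replicates 3 and 4 lay above all scrambled libraries, and replicates 1 and 2 lay among them. The log2 fold change was 0.24 ± 0.16 SE (limma adjusted p = 0.339; 95% interval -0.12 to 0.59). Pdhb, the E1 beta subunit (chromosome 14, 8165996 to 8173025, minus strand), was at 32.29, 20.38, 27.94 and 32.92 FPKM and at 26.20, 26.14, 25.04 and 28.83 FPKM. All Med13 morpholino libraries fell inside the scrambled range, whose lowest value was again that of scrambled replicate 2. The log2 fold change was -0.07 ± 0.17 SE (limma adjusted p = 0.803; 95% interval -0.45 to 0.30). Pdha1 over Pdhb was 0.245 to 0.565 and 0.396 to 0.540 in the groups, with overlap. Of the exonic bases of Pdha1, 16.1% overlap Map3k15 on the other strand, which was at 0.441 ± 0.151 and 0.57 ± 0.2 FPKM (n = 4 each). Pdhb matched the pseudogene Gm6123 over 1079 bases at 97.0% identity, and Gm6123 was at 0.6579 to 0.9637 FPKM in scrambled and 0.5068 to 0.6428 FPKM in Med13 morpholino libraries.

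Pdk1, a kinase that switches E1 off (chromosome 2, 71873224 to 71903858, plus strand), was the least abundant of the tested genes. Its values of 2.00, 1.19, 1.74 and 2.21 FPKM in scrambled and 2.09, 1.62, 1.14 and 1.37 FPKM in Med13 morpholino libraries overlapped throughout. The log2 fold change was -0.12 ± 0.17 SE (limma adjusted p = 0.650; 95% interval -0.49 to 0.24).

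**Figure D3:**
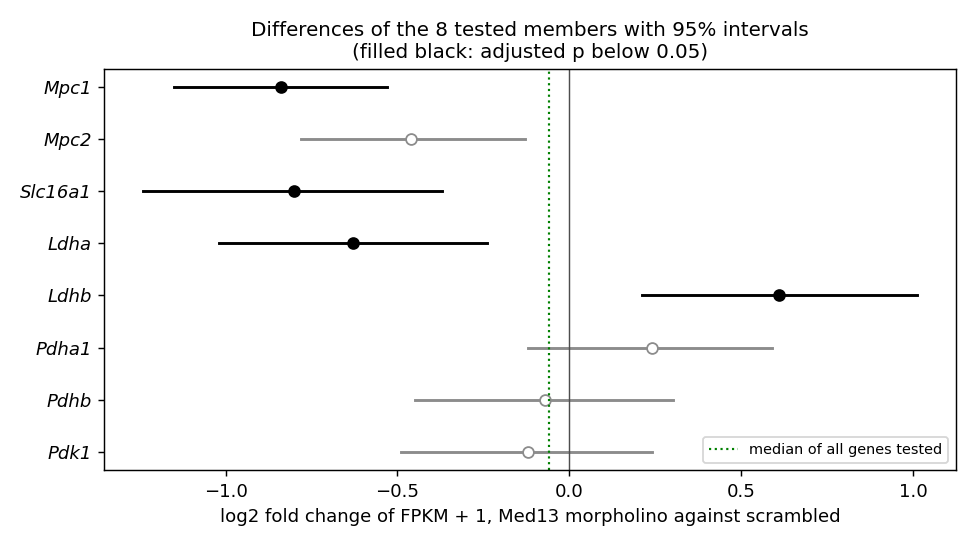
Log2 fold change of FPKM + 1 (horizontal axis, Med13 morpholino against scrambled) of the 8 tested genes with limma's 95% intervals; filled black points had an adjusted p below 0.05. Mpc1, Slc16a1 and Ldha lie to the left of 0 and Ldhb to the right, and the dotted line is the median of all genes tested, -0.06.

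The order of levels changed with the treatment. In scrambled embryos Mpc1 (36.9 ± 3.43 FPKM) stood above Pdhb (28.4 ± 5.77), Mpc2 (27.2 ± 3.72), Ldhb (15.7 ± 3.99), Slc16a1 (12.8 ± 1.6), Pdha1 (10.2 ± 1.53), Ldha (5.94 ± 1.55) and Pdk1 (1.78 ± 0.441; n = 4 each). After Med13 morpholino Pdhb (26.6 ± 1.61 FPKM) led, before Ldhb (24.0 ± 2.05), Mpc1 (20.1 ± 0.777), Mpc2 (19.4 ± 0.517), Pdha1 (12.1 ± 1.74), Slc16a1 (7.11 ± 2.03), Ldha (3.42 ± 0.485) and Pdk1 (1.56 ± 0.408). Slc16a3 and Slc16a7 came last in both groups. Neighbours whose values overlapped were Mpc1 with Pdhb, Pdhb with Mpc2, Ldhb with Slc16a1 and Slc16a1 with Pdha1 in scrambled libraries. After Med13 morpholino they were Pdhb with Ldhb and Mpc1 with Mpc2. Summed FPKM of genes with several models may count a shared fragment more than once, which limits comparison of levels between genes.

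Transcript models show where in each gene the values lie. The 10 genes had 46 models, of which 18 had a mean of at least 1 FPKM. Of these, 10 were called in a fit over 21052 transcripts (limma, adjusted p below 0.05), 7 lower and 3 higher, against 15.7% of all transcripts tested (7.57% lower and 8.17% higher). Models of a gene share exons and are not independent, and these genes were chosen with earlier results of these data known. Without any filter on low values 2 of the models were called, Mpc1-208 and Mpc1-201. The count of 10 was 4 without scrambled replicate 3, 5 without Med13 morpholino replicate 2 or 3, and 6 without scrambled replicate 4 or Med13 morpholino replicate 1.

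All 5 tested models of Mpc1 fell, each annotated as protein-coding, and Mpc1-208 and Mpc1-201 were also called whichever library was left out. Mpc1-208, the most abundant, went from 11 ± 0.575 to 5.47 ± 0.355 FPKM, a log2 fold change of -0.89 ± 0.14 SE (limma adjusted p = 0.00145). Mpc1-205, which begins further downstream at 8284454, fell as well, from 5.16 ± 0.985 to 3.02 ± 0.128 FPKM (limma adjusted p = 0.0180). In Mpc2 the models differed in their calls. The full-length coding model Mpc2-201 was at 12.3 ± 2.47 and 9.57 ± 0.712 FPKM (limma adjusted p = 0.237), while the short noncoding Mpc2-203, which begins at 165478142 in the last part of the gene, fell from 10.8 ± 0.983 to 7.01 ± 0.638 FPKM (limma adjusted p = 0.0239), a call that held in 4 of 8 fits without 1 library. The difference between these 2 models was not tested. With the most abundant model of each gene in place of the sum, the difference between the groups in log2 Mpc1 over Mpc2 was -0.67 against -0.39.

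In Ldhb, 2 of 3 models rose, Ldhb-201 from 8.16 ± 1.89 to 12.3 ± 0.865 FPKM and the short Ldhb-202 from 5.95 ± 1.63 to 9.29 ± 1.03 FPKM (limma adjusted p = 0.0466 and 0.0449). These calls held in 1 and 2 of 8 fits without 1 library. Of the 2 tested models of Ldha, 0 were called by limma and both had an unadjusted p below 0.05, as had 31.4% of all transcripts tested: Ldha-202 was at 2.55 ± 0.841 and 1.5 ± 0.122 FPKM (limma adjusted p = 0.0711) and Ldha-201, which begins at a second start, at 2.21 ± 0.735 and 1.40 ± 0.280 FPKM. In Pdha1 the coding model Pdha1-201 was at 7.23 ± 1.02 and 8.23 ± 1.45 FPKM (limma adjusted p = 0.552), and the noncoding Pdha1-203 rose from 0.733 ± 0.458 to 1.81 ± 0.150 FPKM (limma adjusted p = 0.0140). Pdha1-203 reached the mean of 1 FPKM only through the Med13 morpholino group, so its own difference let it into the test, and without a filter on low values it was not called (limma adjusted p = 0.0703).

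**Figure D4:**
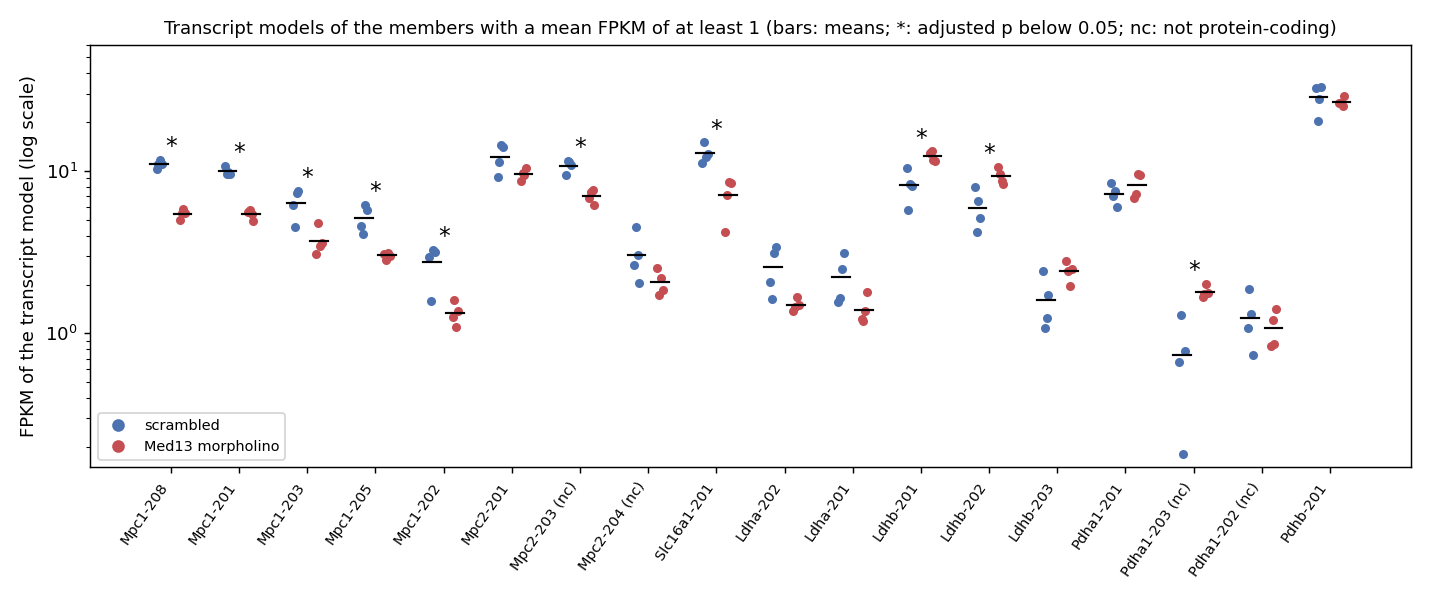
FPKM (log scale) of the 18 tested transcript models in scrambled (blue) and Med13 morpholino libraries (red); bars are means, nc marks models that are not annotated as protein-coding, and stars mark an adjusted p below 0.05. All 5 Mpc1 models are lower after Med13 morpholino, and Ldhb-201 and Ldhb-202 are higher.

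The genes whose level followed Mpc1 most closely over the 8 libraries, among 5534 other genes with a mean of at least 5 FPKM, were Crebrf, a regulator of the factor CREB3, Samd15, and Pigx, which acts in the making of GPI anchors. Pearson's r of log2(FPKM + 1) was 0.995, 0.991 and 0.990. The libraries form 2 groups, so r includes the group difference, and a gene chosen this way has to differ between the groups as Mpc1 does. Crebrf, for example, was at 21.11 to 30.41 FPKM in scrambled libraries and 9.665 to 10.22 FPKM after Med13 morpholino.

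Other genes of the pathway were not called more often than genes in general. Of 73 genes in 9 lists, 47 were tested, 5 rose and 2 fell, which is 14.9% against 17.1% of all genes tested. Their median log2 fold change was -0.02, against -0.06 over all genes tested. Leaving out 1 library left 2 to 7 of them called, with 2 without scrambled replicate 3 or Med13 morpholino replicate 1, 3 without scrambled replicate 4 or Med13 morpholino replicate 2 or 3, and 4 without Med13 morpholino replicate 4.

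Among 4 tested transporters and partners of 9 listed, 1 rose. This was Slc5a12, a sodium-coupled carrier of lactate and pyruvate, at a low level of 1.12 ± 0.340 and 2.01 ± 0.413 FPKM (limma adjusted p = 0.0466). This call was lost in 6 of 8 fits without 1 library, with a pseudocount of 0.1 and after median-ratio scaling or quantile normalization. Bsg, the chaperone that brings MCT1 to the surface, named after its values were seen, was at 6.12 ± 2.74 and 7.26 ± 0.705 FPKM (limma adjusted p = 0.443). Of 6 tested makers and users of pyruvate, 2 rose. Me1, the cytosolic malic enzyme that makes pyruvate from malate, was at 9.647, 6.4, 4.2 and 5.253 FPKM in scrambled replicates 1 to 4 and at 16.25, 12.68, 10.21 and 12.53 FPKM after Med13 morpholino. All Med13 morpholino libraries lay above all scrambled libraries, with a log2 fold change of 0.95 ± 0.22 SE (limma adjusted p = 0.0134). The call held whichever library was left out. Gpt, the alanine transaminase, which links alanine to pyruvate, rose from 0.582 ± 0.337 to 1.66 ± 0.322 FPKM (limma adjusted p = 0.0107). Gpt passed the filter only through the Med13 morpholino group, and without a filter on low values it was the only gene of the 73 still called (limma adjusted p = 0.0485). With a pseudocount of 0.1 in place of 1, the log2 fold changes of Gpt, Slc5a12 and Dlst were 1.49, 0.82 and 0.92 in place of 0.76, 0.51 and 0.58.

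In the citric acid cycle, 15 of 16 genes were tested, and 2 rose and 1 fell. Cs, the citrate synthase that takes up acetyl-CoA, went from 19.9 ± 4.49 to 32.1 ± 6.18 FPKM, with groups apart (limma adjusted p = 0.0372). Suclg1, a succinyl-CoA ligase subunit, fell from 3.09 ± 0.335 to 1.70 ± 0.567 FPKM (limma adjusted p = 0.0244), and Dlst, the E2 subunit of the oxoglutarate dehydrogenase complex, named after its value was seen, rose from 1.1 ± 0.401 to 2.16 ± 0.656 FPKM (limma adjusted p = 0.0448). The calls of Cs and Dlst held in 1 of 8 fits without 1 library, and that of Suclg1 in 2. Without scrambled replicate 2, Cs and Dlst were not called (limma adjusted p = 0.0619 and 0.0796). With the most abundant transcript only, Suclg1 was at -0.41 in place of -0.62 (limma adjusted p = 0.0976). With array weights, which weigh libraries by their spread, Cs was at 0.38 in place of 0.67 and not called (limma adjusted p = 0.0584).

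Of 6 tested genes of the NADH shuttles, 1 fell. Gpd2, the mitochondrial glycerol-3-phosphate dehydrogenase, went from 11.7 ± 2.65 to 6.51 ± 2.64 FPKM (limma adjusted p = 0.0407). Its groups overlapped, and the call held in 3 of 8 fits without 1 library. With the most abundant transcript only, its log2 fold change was -0.45 in place of -0.80 (limma adjusted p = 0.124).

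Limma called 0 genes in the other 5 lists. In the rest of the pyruvate dehydrogenase complex, 1 of 3 tested genes had an unadjusted p below 0.05, as had 32.4% of all genes tested. That gene was Pdhx, which tethers E3 to the complex, at 5.18 ± 0.475 and 3.6 ± 0.589 FPKM with groups apart (limma adjusted p = 0.0652). The most abundant member Dld, the E3 subunit, was at 6.56 ± 0.366 and 5.46 ± 0.573 FPKM, also with groups apart (limma adjusted p = 0.276). Among other kinases and phosphatases of the complex it was 2 of 4. These were the kinase Pdk3, at 2.25 ± 0.646 and 3.64 ± 0.506 FPKM (limma adjusted p = 0.0545), and Pdpr, a regulator of the phosphatase, at 7.47 ± 1.52 and 10.9 ± 2.25 FPKM with groups apart (limma adjusted p = 0.0804). The phosphatase Pdp2 was the most abundant, at 41.3 ± 2.42 and 33.6 ± 4.03 FPKM, also with groups apart (limma adjusted p = 0.190). Groups were apart in 21.6% of all genes tested. Pdhx, Pdk3 and Pdpr are named after their values were seen. In the supply of lipoate and thiamine it was 0 of 1, Lias, the lipoate synthase, at 6.68 ± 1.09 and 5.61 ± 0.367 FPKM. It was 0 of 1 for other lactate dehydrogenases and 0 of 7 for regulators such as the hypoxia and Myc factors, where Max, the partner of Myc, was at 15.6 ± 2.31 and 19.1 ± 2.8 FPKM. Hif1a and Myc, named after their values were seen, were at 5.32 ± 0.464 and 4.77 ± 1.08 FPKM and at 7.53 ± 0.464 and 7.5 ± 1.96 FPKM.

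**Figure D5:**
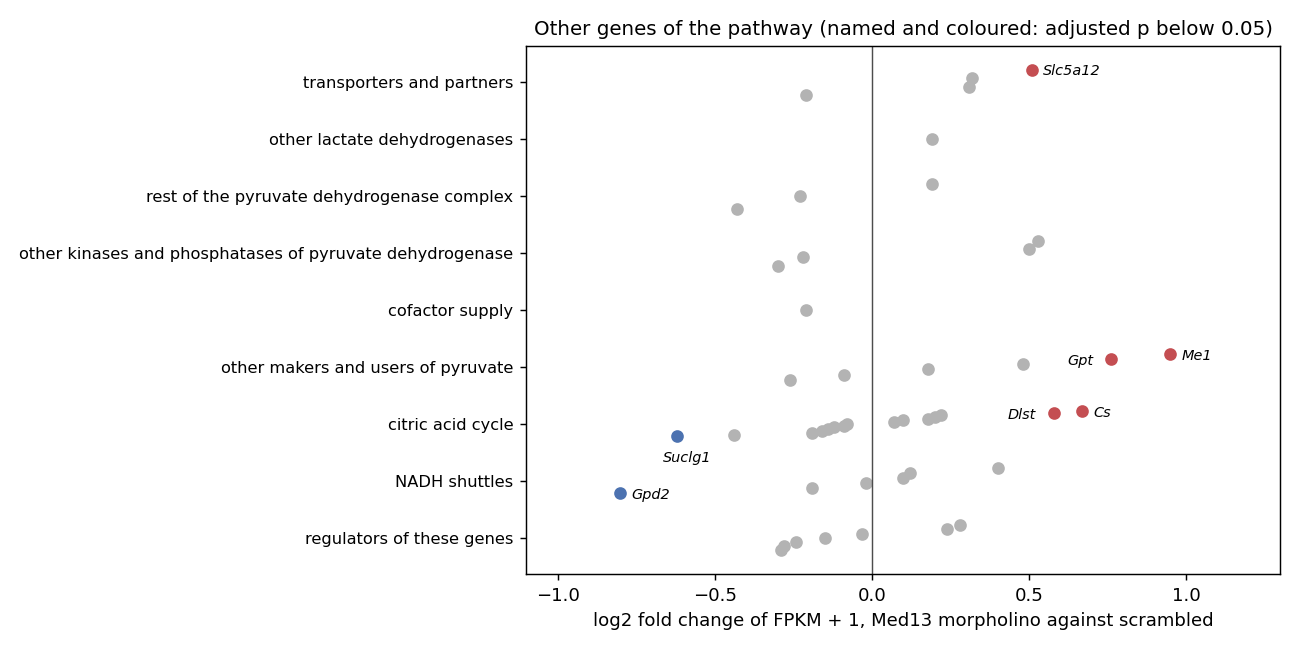
Log2 fold change of FPKM + 1 (horizontal axis, Med13 morpholino against scrambled) of the 47 tested genes of the 9 other lists, 1 point per gene; points in red rose and points in blue fell with an adjusted p below 0.05. The 7 called genes lie in 4 of the lists, with Me1 the farthest right (0.95) and Gpd2 the farthest left (-0.80).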

How the data were processed

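The authors deposited 1 table of FPKM values for 97496 Ensembl transcripts with gene symbols. Per the submitters' processing notes, BWA and the mm10 build were used; the sources used here do not give the BWA version, counting tool, annotation release or strand setting. Total RNA was amplified before library construction, per the labels' protocols, so fragments are not independent molecules. In 3758 rows, all with a hyphen in the symbol, values are moved by 1 column; these were not used, and none belongs to a gene described here. For this reason the deposited column of scrambled replicate 1 holds text in other rows, and it was read as FPKM like the others. Columns were matched to samples by the numbers in the titles, and 0 were left over. GENCODE M21 (GRCm38) gave lengths and coordinates for 98.7% of the rows used. To read back library totals, the most frequent low value times length in each library was taken as 1 fragment. In that unit, values up to 20 fragments fell on steps of 0.5 fragments within 0.005 for 94.3% to 94.5% of them. Fragment numbers given here rest on that choice of unit.

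Rows were summed per symbol, and 11755 genes with a mean of at least 1 FPKM went into limma 3.58.1 (R 4.3.3) as log2(FPKM + 1). The test was two-sided, with a mean-variance trend and no covariate, and p-values were adjusted over all genes by Benjamini-Hochberg. Fold changes on this scale understate changes of low genes. Transcripts were tested likewise. The fit was tested on simulated data. Copies were sought with blastn 2.17.0. The members and lists were chosen with earlier results of these data known, and 2 genes of the lists are not reported here. Named were all members, up to 3 called genes per list or else its most abundant gene, Med13, and the 3 genes most like the member with the smallest adjusted p and most like the most abundant one, which were both Mpc1. Replicates are separate collections, and the p-values rest on the spread between them, which limma draws towards a trend over all genes tested. The library numbers in the titles alternate between the groups, but the labels do not say that neighbouring numbers were collected together, and whether collections were paired is not known; no paired fit was made. Alternatives were pseudocounts of 0.1 and 0.5, no filter and a mean of at least 5 FPKM, median-ratio scaling, quantile normalization, the most abundant transcript only, array weights, and leaving out each library.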

Additional observations from a re-analysis of the deposited data

How the results depend on the processing

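Pseudocounts, median-ratio scaling and quantile normalization left the same 4 members called. The other alternatives changed calls near the threshold. With no filter on low values, 1012 genes were called in all (2010 otherwise), 1 of the pathway list genes and 1 of the members, Mpc1. The log2 fold changes of Slc16a1, Ldha and Ldhb were then -0.80, -0.63 and 0.61 (limma adjusted p = 0.0693, 0.0880 and 0.108). That fit took in 34976 genes. Called transcripts were then 1893 (3315 otherwise), 2 of them of the members. At a mean of at least 5 FPKM, 1137 genes and 3 list genes were called, and Mpc2 passed (-0.46, limma adjusted p = 0.0498). With array weights, 4336 genes and 17 list genes were called, and Mpc2 passed (-0.48, limma adjusted p = 0.00866). With the most abundant transcript only, Ldha was lost (-0.48, limma adjusted p = 0.0724), and the difference in log2 Mpc1 over Mpc2 was -0.67. For these the cause was not tested.

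Leaving out 1 library gave 956 (without Med13 morpholino replicate 2) to 2404 called genes (without scrambled replicate 2), 1 to 5 called members, 2 to 7 called list genes, 1701 to 4062 called transcripts and 4 to 9 called transcripts of members. Over these fits the log2 fold change ran from -0.90 to -0.61 for Slc16a1, from -0.73 to -0.51 for Ldha, from 0.46 to 0.75 for Ldhb, from -0.55 to -0.40 for Mpc2, from -0.90 to -0.80 for Mpc1, and from -0.22 to 0.01 for Pdhb, which turned positive without scrambled replicate 4. Directions of the other tested members were the same in every fit. Slc16a3 and Slc16a7 rest on too few fragments to be compared, and 4 libraries a group limit the calls near the threshold.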
